A study of Mus musculus with 2 samples.

Results

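The Ly6 genes analysed here are Ly6a, Ly6c1, Ly6c2, Ly6d, Ly6e and Ly6h, 6 of the 31053 genes in the single cell matrices of P1 and P7 mouse hearts. They were picked by symbol with their levels in these libraries already known, so the levels below are a description and carry no test. Each gene was followed in cells gated by 1 marker, with at least 1 molecule of that marker and none of the markers of the other lineages: Cdh5 for endothelium, Pdgfra for fibroblasts, Csf1r for macrophages and monocytes, Cd3e for T cells and Upk3b for epicardium. The Upk3b gate was the exception, as its cells could also hold Pdgfra. The Cdh5 cells were further divided by Gja5, Aplnr, Car4 and Npr3, and Pi16 marked a subset of the fibroblasts.

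Ly6 proteins are small, cysteine-rich proteins that are fixed to the outer face of the cell membrane by a glycolipid (GPI) anchor. Ly6a is Sca-1, a marker of blood stem cells and of progenitor-like cells in the outer layer of vessels. Ly6c1 and Ly6c2 encode closely related proteins that are both detected as Ly6C, the antigen that separates inflammatory monocytes from other myeloid cells. Ly6d marks lymphoid progenitors that have turned to the B lineage, Ly6e is induced by interferon and restricts the entry of some viruses, and Ly6h is best known from neurons, where it binds nicotinic receptors.

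The series held 1 library at P1 (postnatal day 1) and 1 at P7 (postnatal day 7), each made from 3 hearts of a single litter that were pooled before digestion. No genotype, strain or treatment was given in the labels used here, and both groups were intact hearts from which live cells were sorted after staining with 7-AAD, a dye that enters dead cells. Digestion in collagenase lasted 20 min at P1 and 45 min at P7. With 1 library per age there was no replicate, no p-value could be given, and age, litter, sex, digestion time and library cannot be told apart.

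After filtering, 4991 cells with 59026295 unique molecular identifiers (UMIs, which count each captured mRNA once) were kept at P1 and 8511 cells with 97432007 UMIs at P7, with medians of 10875 and 10104 UMIs per cell. Before filtering the libraries held 7836 and 9077 barcodes, of which they shared 18. Xist had 57336 UMIs at P1 and 12 at P7, and 4 Y-linked genes had 2 and 18039 UMIs. Cells with RNA of lung type (a UMI of Foxf1 or Hoxa5, or of at least 2 alveolar genes) numbered 420 at P1 and 222 at P7. In every gate checked the markers of its lineage summed to a higher level than in the other cells, and every marker was higher in its gate, except Timp4 in the Car4 subset at P7 with 50.7 CPM against 83.3 CPM in the other Cdh5 cells. Levels are given as CPM, the UMIs of a gene per 1000000 UMIs of the gate, with 95% exact Poisson intervals, and ratios of P1 over P7 on the log2 scale with 0.5 counts added and exact conditional binomial intervals. These intervals, like the Clopper-Pearson intervals given for shares, reflect counting error alone, and the spread from heart to heart or among the cells of a gate is not in them.

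All 6 genes lie on chromosome 15 (GRCm38, GENCODE M21). From the start of the group they are Ly6d (74762056 to 74763620), Ly6e (74955051 to 74959905, the only one on the plus strand), Ly6a (74994877 to 74998031), Ly6c1 (75044018 to 75048830), Ly6c2 (75108158 to 75111970) and Ly6h (75551268 to 75567255). Neighbours in this row resemble each other to different degrees. Over the last 500 bases of the longest coding transcript, from which 3′ libraries draw their reads, Ly6c1 and Ly6c2 were 95.5% identical, Ly6a was 83.8% identical to Ly6c1 and 85.2% to Ly6c2, and every pair with Ly6d, Ly6e or Ly6h was between 46.1% and 50.4%. Of the 451 windows of 50 bases in that stretch, 90 of Ly6c1 (20.0%) and 93 of Ly6c2 (20.6%) also occurred in the transcripts of another gene, against 20 (4.43%) for Ly6a and 0 for Ly6d, Ly6e and Ly6h. A read that lies wholly within shared sequence cannot be assigned to 1 gene. Read length was not used here, so the share of such reads is not known. The absolute levels of Ly6c1 and Ly6c2 are therefore uncertain, and reads that carry a sequencing error could move between the pair.

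Promoter sequence was at hand for 2 of the 6 genes, the Ly6c1 and Ly6c2 pair. It is shown because these neighbours were counted in different cells, endothelial and myeloid. The bases below lie before both the RefSeq and the GENCODE start of each gene (RefSeq windows, build GRCm38.p6, minus strand, written 5′ to 3′), at chr15:75048921-75049087 for Ly6c1 and chr15:75112067-75112221 for Ly6c2, and capitals mark runs of 12 or more bases found in both.
Ly6c1: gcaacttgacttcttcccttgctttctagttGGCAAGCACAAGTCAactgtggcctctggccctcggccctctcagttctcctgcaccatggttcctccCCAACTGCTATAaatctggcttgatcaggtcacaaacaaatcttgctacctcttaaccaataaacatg
Ly6c2: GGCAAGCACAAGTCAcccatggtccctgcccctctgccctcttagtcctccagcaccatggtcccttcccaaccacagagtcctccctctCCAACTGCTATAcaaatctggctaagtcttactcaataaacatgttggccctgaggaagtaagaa
The stretches shared 2 such runs, the longer one of 15 bases, and aligned end to end at 52.7% identity over 188 columns. Columns with a gap counted as unmatched, as for the transcript ends above. The stretches, of 167 and 155 bases, begin at different places, as the run of 15 bases opens that of Ly6c2 but lies further in for Ly6c1. The identity is therefore lower than that of the aligned bases alone. The whole RefSeq windows of 300 bases, with the transcribed start included, aligned at 43.6% to 62.3% identity over the 4 pairs of annotated starts. Gaps were counted in the same way. The letters TATAAA occurred once for Ly6c1 and not for Ly6c2, and 13.6% of the 32851 RefSeq promoter windows of 300 bases held them on either strand. A STAT (GAS) site, TTCNNNGAA, and the interferon-stimulated response element (ISRE) were found on neither strand of any of the windows of the pair. Of all promoter windows, 8.3% and 3.44% held them.

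The 6 genes fell into distinct patterns by cell type, which the plot of the location of the UMIs shows at a glance. Of the Ly6a UMIs, 91.3% at P1 and 78.7% at P7 lay in Cdh5 cells, and of the Ly6c1 UMIs 91.2% and 88.2%. Ly6e was also mainly endothelial, with 69.3% and 71.8%, but was shared with many other cells. In contrast, only 1.3% and 3.06% of the Ly6c2 UMIs lay in Cdh5 cells, and 56.0% and 56.5% lay in Csf1r cells. Most of the Ly6d UMIs, 53.6% at P1 and 51.0% at P7, came from the few Cd79a cells, which are B cells and were gated in addition. Ly6h was divided between fibroblasts, with 43.9% and 55.2%, and endothelium, with 41.9% and 19.7%.

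**Figure D1:**
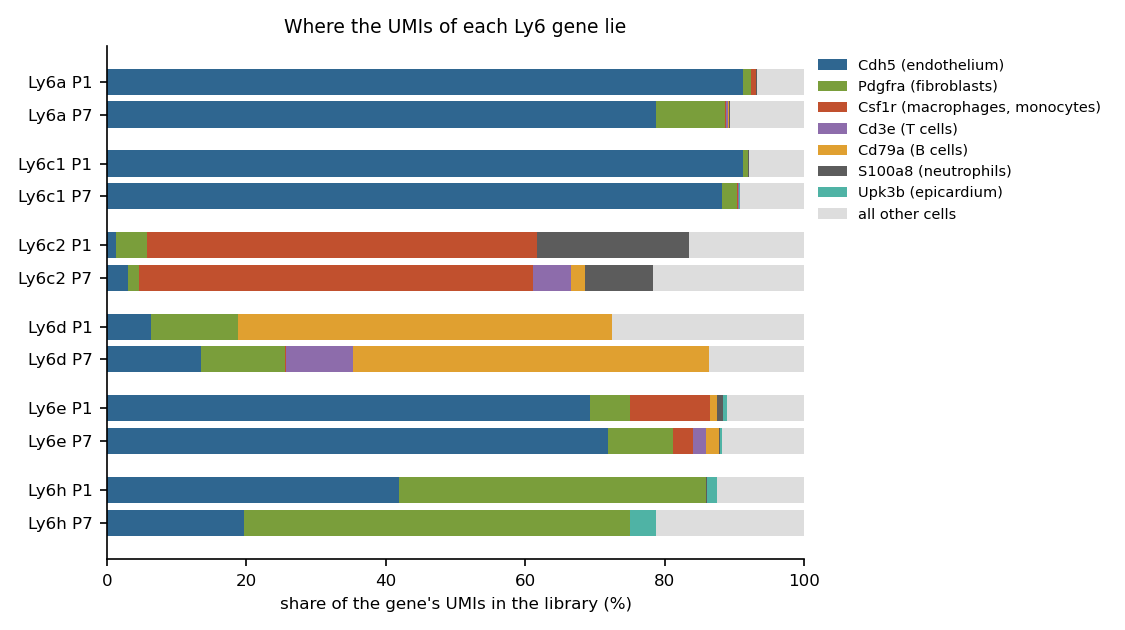
Share of the UMIs of each Ly6 gene (horizontal axis, percent of the gene's UMIs in that library) that fell in each marker gate, 1 bar per gene and library. Ly6a and Ly6c1 lie mostly in Cdh5 cells, Ly6c2 in Csf1r and S100a8 cells, Ly6d in Cd79a cells, and Ly6h in Pdgfra and Cdh5 cells.

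Over all cells kept, 2 of the 6 genes passed 2-fold between the libraries, 1 in each direction, and 12.9% of the 16552 genes with at least 20 summed UMIs did so. Ly6c2 was at 16.9 CPM (15.9 to 17.99) at P1 and 4.69 CPM (4.27 to 5.14) at P7, giving a log2 ratio of 1.85 (1.69 to 2.01). Ly6d was at 7.67 CPM (6.98 to 8.42) and 21.6 CPM (20.7 to 22.5), giving a log2 ratio of -1.49 (-1.64 to -1.34). The other 4 stayed within 2-fold. Ly6a was at 184 and 157 CPM with a log2 ratio of 0.22, and Ly6h at 9.33 and 10.7 CPM with -0.20. Ly6c1 was at 230 and 362 CPM with -0.66, and Ly6e at 308 and 414 CPM with -0.43. The sums over all cells also follow the composition of each library, since Cdh5 cells made up 34.5% of the cells at P1 and 40.3% at P7, and Csf1r cells 4.95% and 2.29%. Fewer cells of a type and less RNA per cell cannot be told apart in such sums, so the gates are described next.

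**Figure D2:**
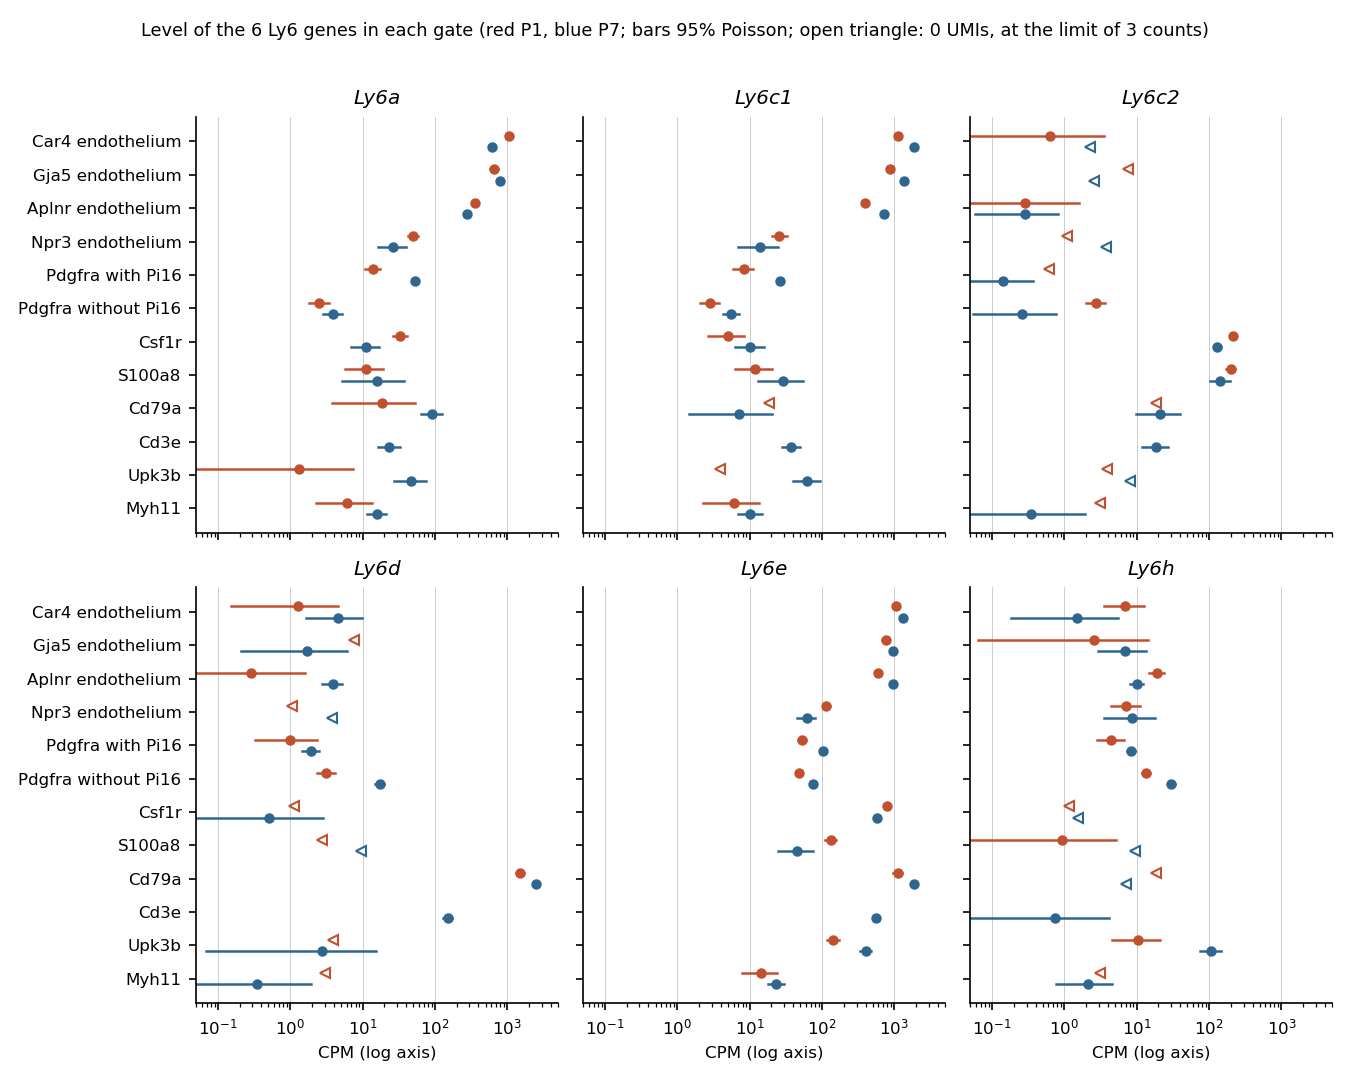
Level of the 6 genes in 12 disjoint gates (horizontal log axis, CPM of the gate; red P1, blue P7; bars 95% Poisson intervals, some of which run off the left edge; open triangles mark 0 UMIs and stand at the limit that 3 counts set). Ly6a, Ly6c1 and Ly6e stand high in the Car4, Gja5 and Aplnr endothelium and low in the Npr3 endothelium, Ly6c2 stands out in Csf1r and S100a8 cells, and Ly6d in Cd79a cells.

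In the endothelium (Cdh5 gate, 1723 cells at P1 and 3426 at P7) Ly6a and Ly6c1 differed in direction between the ages. Ly6a was at 511 CPM (501 to 522) at P1 and 407 CPM (400.1 to 415) at P7, with a log2 ratio of 0.33 (0.29 to 0.37). Ly6c1 was at 640 CPM (628 to 651) and 1050.1 CPM (1038 to 1062), with a log2 ratio of -0.72 (-0.75 to -0.69). The share of Ly6a in the sum of both was therefore 44.4% (43.8 to 45.1) at P1 and 27.9% (27.5 to 28.4) at P7. Ly6e stood at 651 CPM (640 to 663) and 978 CPM (967 to 989), with a log2 ratio of -0.59 (-0.62 to -0.56). None of these 3 passed 2-fold. In the cells left after those with lung-type RNA were removed (195 at P1 and 128 at P7), the Ly6a ratio was 0.16, the Ly6c1 ratio -0.75 and the Ly6e ratio -0.72. All 3 genes kept their direction.

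Of the 6 genes 1, Ly6d, was past 2-fold in the Cdh5 gate, where 9.31% of the 13691 genes tested were. It had 29 UMIs at P1 and 285 at P7, but 24 of the 29 lay in 1 cell and 252 of the 285 in 10 cells, each of these with a UMI of Cd79a. Ly6d was found in 0.348% of the Cdh5 cells at P1 and 0.788% at P7, so its ratio in this gate rests on few cells with B-cell RNA. Ly6c2 had 13 and 14 UMIs in the gate, or 0.672 CPM (0.358 to 1.15) and 0.472 CPM (0.258 to 0.793). Its sum with Ly6c1 was 0.105% Ly6c2 at P1 and 0.045% at P7, whereas the same share was 97.7% (96.1 to 98.8) and 92.8% (89.1 to 95.6) in Csf1r cells. At these shares the 2 genes were told apart by the counting, despite their similar transcripts.

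Ly6a and Ly6c1 marked the vessel subsets very unequally. The subsets were taken as Cdh5 cells with exactly 1 of the 4 subset markers, so that 661 Cdh5 cells of P1 and 1326 of P7 with 2 or more markers belonged to none of them. In Car4 cells, Car4 being a membrane-bound carbonic anhydrase of capillaries, Ly6a was at 1064 CPM (1013 to 1116) at P1 and 619 CPM (577 to 662) at P7. In Gja5 cells, which carry a gap junction protein of arteries, it was at 656 CPM (578 to 741) and 792 CPM (742 to 845). In Aplnr cells, with the apelin receptor of capillaries and veins, it was at 363 CPM (344 to 384) and 281 CPM (271 to 291). The level in Npr3 cells, Npr3 being a natriuretic peptide receptor of the endocardium, was far lower, at 50.02 CPM (42.1 to 59.0) and 26.2 CPM (16.2 to 40.1).

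Car4 cells had the highest Ly6a level at P1 and Gja5 cells at P7, and the intervals of neighbours in this order did not overlap at either age. The Gja5 gate held only 29 cells at P1, however, and 60.7% of its Ly6a UMIs lay in 5 of them. Between Car4 and Npr3 cells the Ly6a level differed 21.3-fold at P1 (log2 4.41, 4.16 to 4.67) and 23.6-fold at P7 (log2 4.53, 3.94 to 5.26). In Npr3 cells 114 of the 140 Ly6a UMIs of P1 came from 5 cells, and 13 of the 21 of P7 came from 1 cell.

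Ly6c1 followed the order Car4, Gja5, Aplnr and Npr3 at both ages. In Car4 cells it was at 1125 CPM (1073 to 1179) at P1 and 1862 CPM (1790 to 1938) at P7, and in Gja5 cells at 875 CPM (785 to 973) and 1357 CPM (1291 to 1425). Aplnr cells had 393 CPM (372 to 414) and 725 CPM (709 to 742), and Npr3 cells 25.7 CPM (20.1 to 32.4) and 13.7 CPM (6.86 to 24.6). The difference between Car4 and Npr3 cells was 43.7-fold at P1 and 136-fold at P7, although the P7 value rests on 11 UMIs in 62 Npr3 cells. Ly6e had the same ends with a smaller step. Car4 cells were at 1038 CPM and 1304 CPM, Npr3 cells at 114 CPM (102 to 128) and 61.2 CPM (45.3 to 80.9), a difference of 9.08-fold and 21.3-fold.

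The same contrast was seen in the share of cells with a UMI at an equal depth, for which 2000 UMIs were drawn from each cell and shallower cells were dropped. For Ly6c1 the share was 74.6% (67.3 to 80.9) of 169 Car4 cells at P1 and 89.8% (84.5 to 93.7) of 186 at P7, against 1.95% (0.534 to 4.92) of 205 Npr3 cells and 4.84% (1.01 to 13.5) of 62. For Ly6a it was 57.4% and 56.5% in Car4 cells and 5.85% and 3.23% in Npr3 cells. Some neighbours in the order by CPM lay close in this share. At P7 41.7% of 127 Gja5 cells and 43.5% of the Car4 cells had no Ly6a UMI, against 65.5% of the Aplnr cells. At P1 55.2% of 29 Gja5 cells and 56.0% of 257 Aplnr cells had no Ly6c1 UMI, against 25.4% of the Car4 cells. Unthinned, Ly6c1 was found in 93.4% and 92.1% of the Car4 cells and in 8.96% and 11.3% of the Npr3 cells. Smooth muscle (Myh11 cells, median depth 10511 and 9667 UMIs) was taken as a background for free RNA, which was not measured itself. The thinned share of Ly6c1 there was 2.35% at P1 and 1.89% at P7, and that of Ly6a 3.53% and 0.758%. The intervals of the Npr3 shares of both genes overlapped those of smooth muscle at both ages. In CPM the Npr3 cells of P1 were higher, at 50.02 for Ly6a and 25.7 for Ly6c1. Smooth muscle had 6.12 for each, from 6 UMIs, with an interval of 2.25 to 13.3 for Ly6a. In the Npr3 cells of P1, 5 cells held all but 26 of 140 Ly6a UMIs and 22 of 72 Ly6c1 UMIs. At P7 Ly6a was at 26.2 in Npr3 cells and 15.8 in smooth muscle, with overlapping intervals, and Ly6c1 at 13.7 and 10.2. Whether the UMIs of Npr3 cells were free RNA was not tested. The Npr3 cells were the deepest of the subsets, with medians of 13536 and 11851 UMIs against 7332 and 5487 UMIs in Car4 cells. The Actn2 gate, meant as a further background, had 53 cells at P1 and 19 at P7, of which 42 and 13 reached 2000 UMIs, and was too small for this use.

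**Figure D3:**
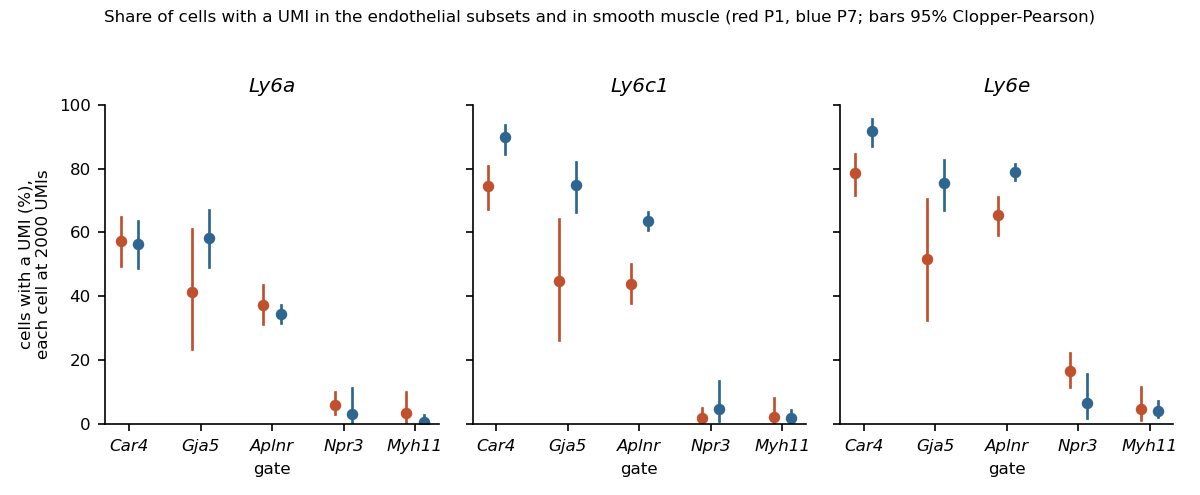
Share of cells with a UMI of Ly6a, Ly6c1 or Ly6e (vertical axis, percent) at 2000 UMIs per cell, in the endothelial subsets and in Myh11 smooth muscle cells (red P1, blue P7; bars 95% Clopper-Pearson intervals). Car4 cells reach 74.6% and 89.8% for Ly6c1, while Npr3 cells stay at 1.95% and 4.84%, near smooth muscle.

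Ly6a and Ly6c1 were often found in the same endothelial cells, but Ly6c1 was the broader of the pair. At 2000 UMIs per cell, 513 of 1600 Cdh5 cells at P1 (32.1%) and 1193 of 3175 at P7 (37.6%) had a UMI of both. Ly6c1 was detected in 78.6% of the P1 cells that had Ly6a and in 34.4% of those that did not, and at P7 in 85.4% and 61.9%. Since cells of different subsets are mixed here, the difference includes that between the subsets. Within the Aplnr cells alone the values were 67.7% and 29.8% at P1 and 77.3% and 56.5% at P7.

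Within these 4 subsets Ly6d, in Aplnr cells, was the only one of the 6 Ly6 genes past 2-fold between the ages with at least 20 UMIs. Of the 6 genes, 5 reached that number in Aplnr, 3 in Car4, 3 in Gja5 and 4 in Npr3 cells. The background was 7.76% of the genes that did so in Aplnr, 7.8% in Car4, 10.3% in Gja5 and 10.2% in Npr3 cells. The Ly6c1 ratio was negative in each of the capillary and arterial subsets, at -0.88 (-0.97 to -0.80) in Aplnr, -0.73 (-0.82 to -0.64) in Car4 and -0.63 (-0.80 to -0.46) in Gja5 cells. The Ly6a ratio was 0.78 (0.66 to 0.90) in Car4 and 0.37 (0.28 to 0.47) in Aplnr cells, but -0.27 (-0.48 to -0.07) in Gja5 cells. Cells with lung-type RNA were 37 of 276 Aplnr cells at P1 and 28 of 1147 at P7, and 33 of 183 and 6 of 214 Car4 cells. Without them the Ly6a ratio in Aplnr cells was 0.19, below its interval. Under that setting Ly6c1, higher at P7, and Ly6h, higher at P1, were also past 2-fold in Aplnr cells. In Npr3 cells the ratios of Ly6a, Ly6c1 and Ly6e lay between 0.85 and 0.90, from few UMIs, and that of Ly6c1 had an interval (-0.02 to 1.97) that included 0. The Ly6d value of Aplnr cells, with 1 UMI at P1 and 41 at P7, again rested on 6 cells, 1 of which held 19.

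Lymphatic cells were sought in the gate through Prox1, the transcription factor that defines lymphatic identity. The choice was made after the values were seen, and Prox1 occurs in other endothelium too. A single Prox1 UMI was found in 50 of the Prox1 cells at P1 and in 45 at P7. No further lymphatic marker was checked, so these cells may include other endothelium. The 66 Prox1 cells of P1 and 71 of P7 had 183 CPM of Ly6a at either age (156 to 213 and 157 to 213). Their Ly6c1 level was 140 CPM (116 to 166) at P1 and 360 CPM (322 to 401) at P7, below that of Cdh5 cells without any subset marker, at 628 and 930 CPM. Of the 164 Ly6a UMIs of P1, however, 82 lay in 1 cell. The log2 ratio of Ly6c1 in these cells was -1.36 (-1.67 to -1.07), past 2-fold, as were 8% of the genes tested there. The Ly6a and Ly6c1 levels lay between those of the Npr3 cells and those of the capillary cells.

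Ly6h, the member known from neurons, was a low-level gene of the endothelium with a different order of subsets. It was at 11.9 CPM (10.5 to 13.6) in the Cdh5 gate at P1 and 6.95 CPM (6.04 to 7.97) at P7, with a log2 ratio of 0.78 (0.50 to 1.06). Aplnr cells had 19.1 CPM (14.8 to 24.2) and 10.0 CPM (8.21 to 12.1), and Car4 cells 6.96 CPM (3.48 to 12.5) and 1.51 CPM (0.183 to 5.46), from 11 and 2 UMIs (log2 ratio 1.95, 0.01 to 5.42). Car4 cells, which were highest for Ly6a, Ly6c1 and Ly6e among the subsets at P1, were thus below the Aplnr cells for Ly6h, with a log2 difference of -1.40 (-2.52 to -0.52) at P1 and -2.41 (-5.79 to -0.84) at P7. Smooth muscle cells had 0 Ly6h UMIs at P1, which allows up to 3.06 CPM, and 2.11 CPM (0.774 to 4.59) at P7. No single cell carried the endothelial value, as the highest cell held 7 of 231 UMIs at P1 and 8 of 206 at P7.

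**Figure D4:**
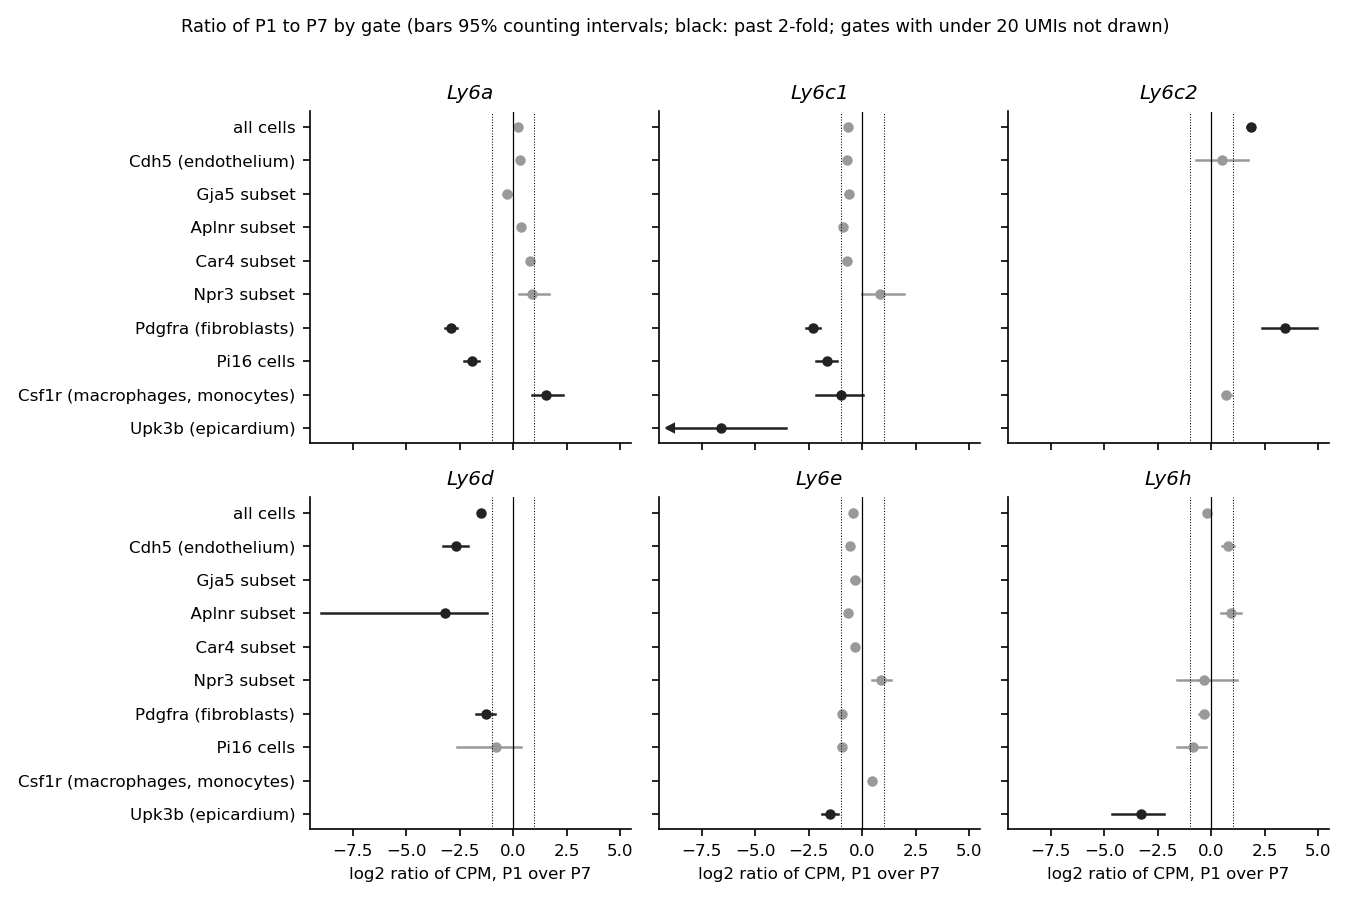
Ratio of P1 over P7 for each gene (horizontal axis, log2 of the CPM ratio with 0.5 counts added; bars 95% counting intervals; dotted lines at 2-fold; black marks past 2-fold; gates with under 20 UMIs of the gene left out; an arrowhead marks an interval without a lower end). Ly6a lies right of 0 in the Cdh5 gate and left of it in the Pdgfra gate, whereas Ly6c1 lies left of 0 in both.

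In fibroblasts (Pdgfra gate, 1351 cells at P1 and 2349 at P7) 4 of the 6 genes passed 2-fold, 3 of them higher at P7, with a background of 11.4% in either direction, 7.34% higher at P1 and 4.06% higher at P7. Ly6a was at 5.17 CPM (4.25 to 6.23) at P1 and 38.5 CPM (36.6 to 40.5) at P7, giving a log2 ratio of -2.89 (-3.19 to -2.62). Ly6c1 was at 4.09 CPM (3.28 to 5.05) and 20.0 CPM (18.7 to 21.5), giving a log2 ratio of -2.29 (-2.63 to -1.97). When cells with markers of other lineages were kept in the gate, both ratios were closer to 0, at -1.07 for Ly6a and -1.22 for Ly6c1. The remaining calls were Ly6d, with 56 and 253 UMIs, and Ly6c2, with 44 and 7 UMIs, and both rested on few cells. For Ly6c2, 43 of the 44 UMIs of P1 lay in 1 cell. Without the highest cell of each library its log2 ratio was -0.69. For Ly6d, 51 of 56 UMIs lay in 2 cells at P1 and 236 of 253 in 7 cells at P7, and 1 of the 2 and all 7 of these cells had a Cd79a UMI. Ly6e, at 48.9 CPM (46.0 to 52.0) and 94.8 CPM (91.8 to 97.9), had a ratio of -0.95 (-1.05 to -0.86), just within 2-fold.

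At P7 the Ly6a and Ly6c1 UMIs of the fibroblasts lay mostly in the Pi16 cells. Pi16 marks fibroblasts of the adventitia that have been described as progenitors of other fibroblasts, and its gate held 248 cells at P1 and 1531 at P7, or 4.97% and 17.99% of all cells. A single Pi16 UMI was found in 135 of these cells at P1 and in 265 at P7. The markers of the gate were set apart less at P1. Dpp4 was at 6.05 CPM against 5.46 CPM in the other Pdgfra cells at P1, and at 42.2 against 9.49 CPM at P7. Clec3b was at 339 against 160 CPM and 1069 against 236 CPM, and Cd248 at 77.5 against 34.0 CPM and 208 against 39.3 CPM. Of the 1525 Ly6a UMIs in P7 fibroblasts, 1480 were in Pi16 cells, and of the 793 of Ly6c1, 729 were. At P1 the Pi16 cells held 69 of 110 Ly6a UMIs and 41 of 87 Ly6c1 UMIs. In Pi16 cells Ly6a was at 13.9 CPM (10.8 to 17.6) at P1 and 52.7 CPM (50.04 to 55.45) at P7, giving a log2 ratio of -1.91 (-2.29 to -1.57), whereas in Pdgfra cells without Pi16 it was at 2.51 CPM (1.80 to 3.41) and 3.92 CPM (2.86 to 5.25). The log2 ratio of Ly6a in the cells without Pi16 was -0.64 (-1.29 to 0.002). The log2 difference between the cells with and without Pi16 was 2.46 (1.89 to 3.06) at P1 and 3.73 (3.32 to 4.21) at P7. Within the Pi16 cells 5 of the 6 genes had at least 20 UMIs. Of these, 2 (Ly6a and Ly6c1) were past 2-fold, with a background of 10.8%. Neither call held under every setting. When cells with markers of other lineages were kept, the ratio in Pi16 cells was -0.65 for Ly6a and -0.90 for Ly6c1, and with each cell at 2000 UMIs that of Ly6c1 was -0.57.

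A few cells held most of the P1 value but not the P7 value. At P1, 57 of the 69 Ly6a UMIs of Pi16 cells came from 5 cells. At P7, 342 of the 1531 Pi16 cells (22.3%, 20.3 to 24.5) had a UMI of Ly6a, 150 had 3 or more, and 5 cells held 209 of the 1480 UMIs. The Pi16 cells were deep, at medians of 19289 and 17834 UMIs, and with each cell at 2000 UMIs the share with Ly6a was 0.806% (0.098 to 2.88) at P1 and 6.34% (5.17 to 7.69) at P7, against 0.567% and 0.501% in cells without Pi16 and 3.53% and 0.758% in smooth muscle. The P1 shares rest on only 2 of 248 Pi16 cells and 3 of 85 smooth muscle cells, too few to order them. In CPM the P1 order was the other way, with 13.9 in Pi16 cells and 6.12, from 6 UMIs, in smooth muscle. At P7 the share in Pi16 cells was above that of smooth muscle, and so was the CPM, at 52.7 against 15.8. Whether the Ly6a UMIs of either age were free RNA was not tested.

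Because endothelium is full of Ly6a and Ly6c1, their UMIs were set against those of 5 endothelial markers (Pecam1, Kdr, Emcn, Tie1 and Egfl7) in the same cells. In Cdh5 cells there were 14.8 Ly6a UMIs per 100 endothelial marker UMIs at P1 and 11.8 at P7. Pdgfra cells without Pi16 had 7.84 and 11.7, and Csf1r cells without Ccr2 had 9.09 and 15.7. Pi16 cells had 61.6 at P1 and 205 at P7, with no more endothelial marker RNA (22.6 and 25.7 CPM) than Pdgfra cells without Pi16 (32.1 and 33.5 CPM). The P1 value of the Pi16 cells rested on 69 Ly6a UMIs, 57 of them in 5 cells. High numbers of Ly6a were also found in gates of few Ly6a UMIs or cells. Csf1r cells with Ccr2 had 140 at P1, from 81 UMIs, and 10.8 at P7, Upk3b cells had 1.10 at P1 and 100 at P7, from 17 UMIs, and Myh11 cells had 17.6 and 35.4, with 37 of the 45 UMIs of P7 in 1 cell. For Ly6c1 the number was 36.6 and 101 in Pi16 cells, 18.5 and 30.5 in Cdh5 cells, and 135 in the Upk3b cells of P7, from 23 UMIs. The Ly6a share of the sum of Ly6a and Ly6c1 was 67.0% (65.0 to 69.0) in the Pi16 cells of P7, against 27.9% in the endothelium of the same library.

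**Figure D5:**
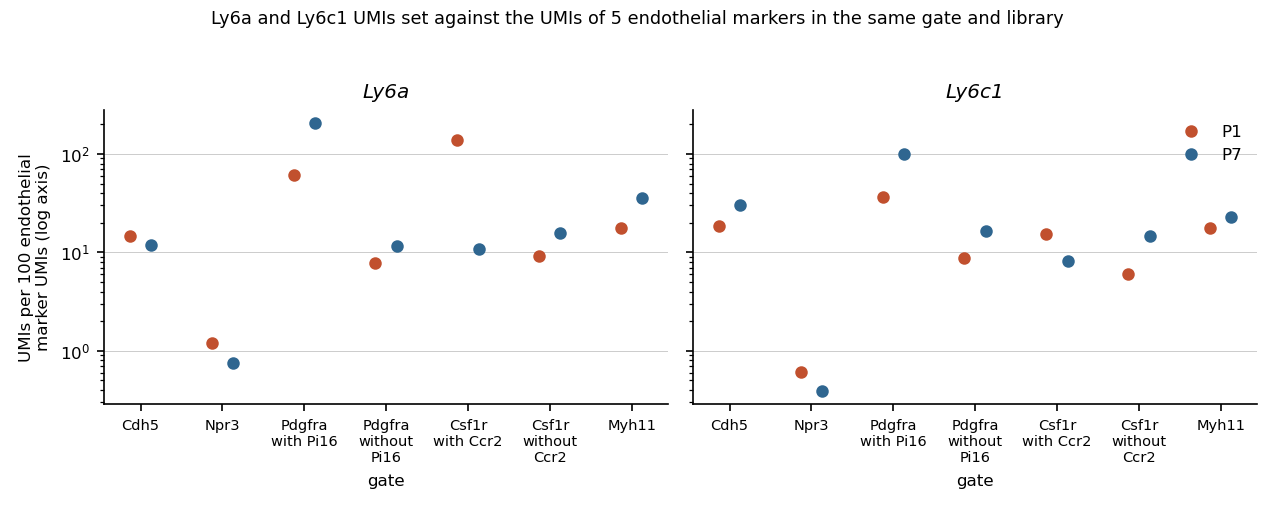
Ly6a and Ly6c1 UMIs per 100 UMIs of 5 endothelial markers in the same gate and library for 7 gates (vertical log axis; red P1, blue P7). Pi16 fibroblasts stand above the Cdh5 endothelium at both ages, with 205 against 11.8 for Ly6a at P7. Their P1 value of Ly6a rests largely on 5 cells. Pdgfra cells without Pi16 lie near or below the Cdh5 endothelium, and Csf1r cells with Ccr2 reach 140 for Ly6a at P1. Npr3 cells lie lowest of the gates drawn.

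Ly6h behaved the other way within the fibroblasts. Cells without Pi16 had 13.5 CPM (11.8 to 15.4) at P1 and 29.96 CPM (26.9 to 33.3) at P7, and Pi16 cells 4.44 CPM (2.78 to 6.72) and 8.30 CPM (7.26 to 9.43). The log2 difference of Pi16 cells to the others was -1.57 (-2.31 to -0.97) at P1 and -1.85 (-2.10 to -1.61) at P7. The cells without Pi16, a split made after the values were seen, were 2.22-fold higher at P7 than at P1, and the Pi16 cells 1.83-fold higher. The gate as a whole, in which Pi16 cells were 248 of 1351 at P1 and 1531 of 2349 at P7, had a log2 ratio of -0.36 (-0.58 to -0.14). In the fibroblasts Ly6h was spread over 116 cells at P1 and 291 at P7, with at most 18 of 242 and 25 of 577 UMIs in 1 cell. With each cell at 2000 UMIs the ratio was of opposite sign, at 0.10 in the gate and 0.15 in its Pi16 cells. With at least 2 marker UMIs the ratio in Pi16 cells was -3.01.

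Among the myeloid cells (Csf1r gate, 247 cells at P1 and 195 at P7) Ly6c2 was at 213 CPM (196 to 231) at P1 and 131 CPM (115 to 148) at P7, giving a log2 ratio of 0.70 (0.49 to 0.92). It was found in 23.1% (17.97 to 28.8) and 16.9% (11.9 to 22.9) of these cells, and at equal depth in 12.7% (8.65 to 17.7) and 12.4% (8.05 to 18.1). Nearly all of it was in the cells with a UMI of Ccr2, the chemokine receptor of circulating monocytes, by a split made after the values were seen. Of the Ly6c2 UMIs of the gate, 538 of 559 at P1 and 253 of 258 at P7 were in Ccr2 cells, at 408.5 CPM (375 to 444.5) and 288 CPM (254 to 326). Csf1r cells without Ccr2 had 16.0 CPM (9.93 to 24.5) and 4.56 CPM (1.48 to 10.6). Ccr2 cells were 104 of 247 at P1 and 83 of 195 at P7.

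Ly6c2 was also present in the S100a8 cells, which carry a protein of neutrophils and monocytes, at 200 CPM (174 to 228) in 213 cells of P1 and 143 CPM (105 to 192) in 63 cells of P7. Their intervals overlapped those of the Csf1r cells at each age, and no other lineage gate of at least 20 cells exceeded 21.1 CPM. Csf1r and S100a8 cells together were a larger share of the P1 library, in which S100a8 cells made up 4.27% of the cells against 0.74% at P7. The S100a8 cells were shallow, with medians of 2991 and 2253 UMIs, and 93.3% of the P7 UMIs were in 5 cells.

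Ly6e in the Csf1r gate was at 799 CPM (765 to 834) at P1 and 583 CPM (550 to 618) at P7, giving a log2 ratio of 0.45 (0.35 to 0.56), opposite in sign to the endothelial ratio. The Ccr2 cells had 1197 CPM (1139 to 1258) and 857 CPM (797 to 921), and the others 397 CPM (364 to 433) and 364 CPM (329 to 401), whose intervals overlap. In the gate 4 of the 6 genes had at least 20 UMIs, and 2 of these passed 2-fold. The background was 9.08% (6.06% higher at P1 and 3.02% at P7), and neither call rested on many cells. Ly6a had 87 UMIs at P1 and 22 at P7 (log2 ratio 1.55, 0.88 to 2.32), but 73 of the 87 lay in 5 cells, none of which had UMIs of 2 or more endothelial markers, and the ratio was -0.70 when each cell counted equally. At P7, 14 of the 22 lay in 5 cells, and 3 of these had UMIs of 2 or more endothelial markers. The Ly6a ratio was 3.59 (2.34 to 5.66) in Ccr2 cells, from 81 and 4 UMIs. In the cells without Ccr2 it was -1.76 (-3.46 to -0.44), from 6 and 18 UMIs. Over the whole gate Ly6c1 had 13 and 20 UMIs, with an interval that included 0. Ly6h had 0 UMIs in the Csf1r cells of either library, which allows up to 1.14 CPM at P1 and 1.52 CPM at P7. Its level in fibroblasts was 9.96-fold and 9.60-fold these limits, and counting error of the fibroblast level is not in these folds.

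Ly6d marked B cells. In the 28 Cd79a cells of P1 it was at 1483 CPM (1302 to 1682) and in the 77 of P7 at 2505 CPM (2358 to 2660), giving a log2 ratio of -0.75 (-0.96 to -0.55), and it was found in 71.4% (51.3 to 86.8) and 89.6% (80.6 to 95.4) of them. Over all cells, 16 cells of P1 and 80 of P7 had 10 or more Ly6d UMIs, and 15 and 64 of these also had Cd79a. None of them had a UMI of Krt5, Krt14 or Krt8, keratins of the epithelia in which Ly6d is also known. Ly6e was high in the same B cells, at 1117 CPM (961 to 1291) and 1871 CPM (1744 to 2006), and above every other gate at P7.

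A second site of Ly6d was a group of T cells at P7. The Cd3e gate held only 4 cells at P1, too few for a value, and 198 at P7, with 150 CPM (130 to 172) of Ly6d. Of its 204 UMIs, 183 were in the 66 cells that also had Rag1 or Dntt, which act in the rearrangement of antigen receptor genes in immature lymphocytes. These cells had 374 CPM (322 to 432) of Ly6d and 1103 CPM (1012 to 1200) of Ly6e, against 24.2 CPM (15.0 to 36.9) and 241 CPM (209 to 275) in the other 132 Cd3e cells. The split was made after the values were seen. Cells of this kind develop in the thymus, and the labels name the heart as the only tissue.

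In the epicardium (Upk3b gate) there were 52 cells at P1 and 25 at P7, of which 20 and 2 were among the cells with lung-type RNA. Only 3 of the 6 genes had at least 20 UMIs, and all 3 were past 2-fold and higher at P7. Of all genes with at least 20 UMIs, 11.1% were past 2-fold in either direction and 4.77% higher at P7. Ly6c1 and Ly6h reached 20 UMIs only through P7, where they were high. Ly6e was at 142 CPM (116 to 171) at P1 and 401 CPM (339 to 472) at P7, giving a log2 ratio of -1.50 (-1.87 to -1.13), and was found in 73.1% and 88.0% of the cells. Ly6h had 8 UMIs at P1 and 39 at P7, or 10.5 CPM (4.53 to 20.7) and 106.5 CPM (75.7 to 146), the highest Ly6h level of any gate. It was found in 5 of 52 and 9 of 25 cells, and the highest cell of P7 held 15 of the 39 UMIs. Of the 5 cells with most Ly6h UMIs, 1 at P1 and 2 at P7 had UMIs of 2 or more endothelial markers. Without the cells with lung-type RNA the Ly6h ratio was -4.48 and without the highest cell of each library it stayed past 2-fold.

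Ly6c1 had 0 UMIs in the epicardial cells of P1, which allows up to 3.94 CPM. Those of P7 had 23 UMIs (62.8 CPM, 39.8 to 94.2), 15.9-fold that limit. Counting error of the P7 value is not in this fold, and the interval of the log2 ratio ended at -3.58. As 15 of the 23 UMIs, and 15 of the 17 of Ly6a, were in 1 cell of 28283 UMIs, the P7 level is that of few cells. Of the 5 cells with Ly6c1 at P7, 2 had UMIs of 2 or more endothelial markers. When cells with markers of other lineages were not left out, the Ly6c1 ratio was 0.61 and the Ly6e ratio -0.75, which was no longer past 2-fold, while the Ly6h ratio was -3.43. With each cell at 2000 UMIs the Ly6e ratio was -0.94, and none of the 6 genes was both past 2-fold and at 20 UMIs.

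The interferon genes were listed as background, because Ly6a and Ly6e are induced by interferon. Over all cells 12 of 30 were past 2-fold and higher at P1 and 0 higher at P7, with a median log2 ratio of 0.66 against 0.00 for all genes tested. The shares of all genes were 8.88% and 4.07%. The largest ratios were those of Mx1 (2.91) and Ifit1 (2.34), and the lowest those of Ifi27 (-0.51) and Ifit2 (-0.49). In Cdh5 cells 10 of 28 were higher at P1 and 0 at P7, led by Ifit1 (10.9 and 1.52 CPM) and Ifi44 (11.9 and 2.87 CPM), with Ifi27 (71.0 and 114 CPM) and Psmb8 (56.9 and 82.6 CPM) lowest among those tested. Of all genes tested in Cdh5 cells 5.24% were past 2-fold and higher at P1 and 4.06% at P7. In Csf1r cells 15 of 28 were higher at P1 and 1, Ifi27, at P7, led by Usp18 with 28 UMIs against 1 and Rtp4 with 430 against 34, and Psmb8 came next to Ifi27 with a ratio of -0.03. In Pdgfra cells 10 of 25 were higher at P1 and 1, Ifit3 (-1.85), at P7, with Gbp2 (-0.91) next and Usp18 (2.81) and Rtp4 (2.27) at the other end. Of all genes tested in Csf1r cells 6.06% were past 2-fold and higher at P1 and 3.02% at P7. In Pdgfra cells these shares were 7.34% and 4.06%. Beside this list, Ly6a had ratios of 0.33 in Cdh5, 1.55 in Csf1r and -2.89 in Pdgfra cells, and Ly6e had -0.59, 0.45 and -0.95.

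Of the genes that build and attach the GPI anchor, 27 were in the matrices, and 0 of them were past 2-fold in all cells, in Cdh5 or in Pdgfra cells, with median log2 ratios of 0.00, 0.00 and 0.05. The shares of all genes tested that were past 2-fold there were 12.9%, 9.31% and 11.4%. In Csf1r cells 1 of 21, Pgap1, was past 2-fold, at 8.38 and 17.2 CPM, which was the lowest ratio of the list there, followed by Pigv (-0.85), with Pgap2 (0.62) and Pigp (0.34) highest. Of all genes tested in Csf1r cells, 9.08% were past 2-fold. In all cells the list ran from Pigh (-0.35) and Pgap1 (-0.34) to Pigp (0.29) and Mppe1 (0.31), and in Pdgfra cells from Pgap1 (-0.39) and Pigh (-0.35) to Pigo (0.43) and Pigl (0.48). In Cdh5 cells the lowest were Pigh (7.39 and 10.8 CPM) and Pigw (3.05 and 4.25 CPM), and the highest Pigp (103 and 74.3 CPM) and Pigs (24.2 and 19.1 CPM). Over all cells, 8.88% of the genes tested were past 2-fold and higher at P1, and 4.07% higher at P7. Of the 32 other genes of the Ly6 and uPAR family, 17 had at least 20 UMIs over all cells, and 4 of these were past 2-fold and higher at P1 and 3 higher at P7. Gpihbp1, which carries lipoprotein lipase across capillary endothelium, was the most abundant of them at 593 and 635 CPM, with 1671 and 1891 CPM in Cdh5 cells (log2 ratio -0.18, -0.20 to -0.16). Cd59a, an inhibitor of complement, was at 179 and 105 CPM in Cdh5 cells (0.76, 0.69 to 0.83), and Plaur, the urokinase receptor, at 48.7 and 33.3 CPM (0.55, 0.42 to 0.68). Over all cells Lynx1, which binds nicotinic receptors, was at 2.66 and 9.65 CPM (-1.86, -2.11 to -1.61), Cd177 of neutrophils at 3.03 and 0.452 CPM (2.74), Slurp1 at 2.0 and 0.411 CPM (2.27), and Ly6g of neutrophils at 1.83 and 0.708 CPM (1.37). The other genes of this family that reached 100 UMIs in a library, Ly6g6d and Lypd1, were within 2-fold over all cells. Ratios within single gates could differ from these. Lypd1 was at 3.91 in Aplnr cells (17 and 3 UMIs) and 1.81 in Pdgfra cells (25 and 13). In Npr3 cells Lypd1 was at -4.37 (5 and 32 UMIs) and Gpihbp1 at 2.73 (406 and 17 UMIs).

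The genes most like each member were sought over 29 points, each a disjoint gate in 1 library, among 9250 genes with a mean of at least 10 CPM. The points share libraries and cell types, so the correlations (Pearson's r of log2 CPM with 0.5 CPM added) only describe these gates. Ly6a was most like Ly6c1 (r = 0.91), Rapgef1 (0.90) and Sox17 (0.89), and Ly6c1 was most like Ushbp1 (0.92), Btnl9 (0.91) and Ly6a. Ly6c2 was most like Nfam1 (0.96), Bcl2a1b (0.95) and Myo1f (0.95), and its r with Ly6c1 was -0.13. Ly6d was most like Mzb1 (0.96), Ms4a1 (0.94) and Cd79a (0.93), of which the last defined a gate. Ly6e was most like Tmc6 (0.89), AW112010 (0.87) and Git2 (0.87), and Ly6h had the weakest matches, Tfpi (0.77), Cyb5a (0.77) and Zfp57 (0.77).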

How the data were processed

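The authors aligned the reads to mm10 (GRCm38) with Cell Ranger 3.1.0 and deposited, for each of the 2 libraries, raw UMI counts per gene and barcode without normalisation, and no column of sample values was left unused. Barcodes with 200 to 8000 genes and at most 20% mitochondrial UMIs were kept, a mitochondrial limit chosen here. UMIs were summed per gate and library, and a gene was counted as past 2-fold with an absolute log2 ratio of at least 1 and at least 20 summed UMIs. The members, gates and gene lists were chosen with earlier results of these data known. Beside the members, genes of the Ly6 and uPAR family with 100 UMIs in a library, the 2 largest interferon and GPI anchor ratios in each direction per gate described and the 3 genes most like each member were named. Splits by Ccr2, Prox1, Rag1 or Dntt and absence of Pi16 were made after the values were seen. No doublet caller was run beyond the limit of 8000 genes. Comparisons between P1 and P7 had 1 library each and no test. The script for ratios was tested on simulated data. Alternatives varied the mitochondrial limit, scaling, counts added, depth, gates, lung-type cells and the minimum of UMIs. Python 3.11.15, numpy 2.4.6, scipy 1.17.1, pandas 2.3.3 and Biopython 1.88 were used. Promoters of Ly6a, Ly6d, Ly6e and Ly6h and protein sequences were not used here.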

Additional observations from a re-analysis of the deposited data

Results flagged for a closer look

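The ratio of P1 over P7 of 3 members had opposite signs in different gates, with counting intervals on opposite sides of 0. With 1 library per age the differences between gates were not tested. For Ly6a the log2 ratio was 0.33 in the Cdh5 gate and 1.55 in the Csf1r gate, but -2.89 in the Pdgfra gate, differences of 3.22 and 4.44, and the Csf1r value lay largely in 5 cells. With cells of mixed lineage markers kept, the Pdgfra ratio was -1.07. Pi16 cells were 248 of 1351 Pdgfra cells at P1 and 1531 of 2349 at P7. The Ly6a ratio was -1.91 in the Pi16 cells and -0.64 (-1.29 to 0.002) in those without Pi16. For Ly6e it was 0.45 in the Csf1r gate against -0.59 in the Cdh5, -0.95 in the Pdgfra and -1.50 in the Upk3b gate, differences of 1.04, 1.41 and 1.95. For Ly6h it was 0.78 in the Cdh5 gate against -0.36 in the Pdgfra and -3.27 in the Upk3b gate, differences of 1.14 and 4.05, and the Pdgfra ratio became 0.10 with cells of equal depth.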

How the results depend on the processing

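No paired analysis was possible because each age had 1 library. Counting intervals are the only error that can be given, and few cells decide several values. Over 45 ratios with at least 20 UMIs and 531 values under alternatives, 414 lay within the counting interval of the reported value, 112 outside it, and 34 of the ratios kept their sign throughout. The 5 values past 2-fold that turned were Ly6c2 in Pdgfra cells (-1.15 without the 5% of cells with most UMIs and -0.69 without the highest cell, an alternative added after seeing the data), Ly6d in Pdgfra cells (0.24 with at least 2 marker UMIs), Ly6a in Csf1r cells (-0.70 as mean of per-cell CPM) and Ly6c1 in Upk3b cells (0.61 with no exclusion of other lineages). Over all cells, the log2 ratios as mean of per-cell CPM and with cells thinned to 2000 UMIs were 0.066 and 0.11 for Ly6a, -0.91 and -0.89 for Ly6c1, 1.51 and 1.58 for Ly6c2, -1.30 and -1.29 for Ly6d, -0.58 and -0.55 for Ly6e, and 0.020 and 0.21 for Ly6h, which changed sign.

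The number of members past 2-fold moved as follows. In Cdh5 cells it was 2 in place of 1 without exclusion of other lineages. In Aplnr cells it was 2 in place of 1 with per-cell CPM, with at least 2 marker UMIs and with inclusive subsets (added after seeing the data), and 3 without lung-type cells. In Car4 cells it was 1 in place of 0 with the same first 3 settings and 3 with no minimum of UMIs. In Npr3 cells it was 1 in place of 0 with size factors and without exclusion, 2 with thinning, without the 5% of deepest cells, with at least 2 marker UMIs and without the highest cell, and 3 with per-cell CPM. In Pdgfra cells it was 2 in place of 4 with at least 2 marker UMIs. In Pi16 cells it was 1 in place of 2 with thinning, and 4 without the deepest cells, with at least 2 marker UMIs and without the highest cell. Without exclusion it stayed 2, but Ly6a (-0.65) and Ly6c1 (-0.90) were not among them. In Csf1r cells it was 1 in place of 2 in 9 settings and 0 with thinning, and in Upk3b cells 0 in place of 3 with thinning and 5 with no minimum. Scaling by size factors subtracted the median log2 ratio of the genes with at least 20 UMIs in each library. This median was -0.11 in Npr3 and Upk3b cells and between -0.07 and 0.04 in the other gates. Of the pairs of gates with intervals apart, 1 of 22 at P1 and 2 of 48 at P7 changed order with at least 2 marker UMIs, and as many without exclusion. Of the pairs of endothelial subsets, 1 of 21 changed at P1 with thinning and 0 with inclusive subsets. Of the 18 most alike genes, 9 stayed with 5 CPM added.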
